A study of Mus musculus with 8 samples.

Results

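The 9 genes described here encode enzymes and a lipid transporter that build the outermost, water-tight layer of the epidermis: *Tgm1*, *Tgm3*, *Alox12b*, *Aloxe3*, *Abca12*, *Casp14*, *Asprv1*, *Padi1* and *Padi3*. They were chosen by name for this role, and all 9 were found among the 23358 genes of the table. As keratinocytes reach the skin surface they replace their plasma membrane with a cornified envelope, a shell of proteins that transglutaminases join by isopeptide bonds. Lipoxygenases oxidise the linoleate of ceramides that are then bound to the outside of this shell, a transporter loads glucosylceramides into the lamellar granules that release the lipids between cells, and proteases and deiminases process filaggrin and the keratin matrix beneath. Some of the same enzymes act in the inner root sheath of the hair follicle, where deiminated and cross-linked trichohyalin hardens the cells. Dental epithelium makes enamel and builds no such layer.

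RNA-seq was done on cervical loop tissue from incisors of C57BL/6 mice aged 4 weeks. Dental epithelial stem cells reside in the head of the loop (CLH), and the tail (CLT) contains their differentiating progeny. In the cKO mice Cre recombinase driven by the *Krt14* promoter removes floxed exons 8 to 10 of *Med1*, a subunit of the Mediator complex, from epithelial cells, so that mesenchyme keeps the gene, and the Ctrl mice were littermates without Cre. Tissues were pooled from several mice, and each of the 4 groups (Ctrl CLH, cKO CLH, Ctrl CLT, cKO CLT) has 2 libraries, with 22330512 to 28651106 reads on genes. Levels are RPKM (reads divided by gene length in kilobases and by library size), and values written in pairs are replicate 1 followed by replicate 2. In such bulk tissue, more cells of a type and more RNA per cell cannot be told apart.

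The level of *Med1* itself followed the labels in CLH but not in CLT. It stood at 7.71 and 9.12 RPKM in Ctrl CLH and at 7.10 and 7.03 in cKO CLH, lower in both of the latter, a log2 difference of -0.22 ± 0.11 (SE, limma adjusted p = 0.71). In CLT it was at 4.83 and 8.71 in the libraries labelled Ctrl and at 9.15 and 8.96 in those labelled cKO, higher in both of the latter (log2 difference 0.42 ± 0.30, limma adjusted p = 0.36). The RPKM covers the whole gene, including exons outside the deletion and the cells that keep it. Every direction given below therefore compares libraries as they are labelled, with WT in the labels standing for Ctrl and KO for cKO.

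The 2 libraries labelled Ctrl CLT also differed from each other far more than any other pair. Their log2(RPKM + 1) values differed by a median of 0.40 over the 14148 genes tested, against 0.09 for the Ctrl CLH pair and 0.11 for each of the cKO pairs, and 34.6% of genes differed more than 1.5-fold between them. The labels call the cells dental epithelial. Of 9 ameloblast markers, the summed level was 84638 and 37484 RPKM in Ctrl CLT but 23.8 and 20.8 in cKO CLT, with *Amelx*, the most abundant, at 48799 and 18602 against 6.57 and 3.68 and *Wdr72* at 0 in both cKO CLT libraries. Of 8 dental epithelial markers, *Krt14*, *Krt5* and *Cdh1* were present in all 8 libraries. Both cKO CLT libraries lay above both Ctrl CLT libraries for 5 of the 8 markers (37.2% of all genes tested) and below both for 3. Of these 3, 1 was called lower in limma (adjusted p under 0.05), where 1.75% of all genes were called. The cKO CLT libraries thus hold transcripts of the keratins *Krt14* and *Krt5* and hardly any enamel transcripts.

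Taken as a sum, the 9 barrier genes reached 22.3 and 14.3 RPKM in Ctrl CLH, 27.6 and 23.0 in cKO CLH, and in CLT 283 and 24.2 in Ctrl and 817 and 888 in cKO. Ctrl CLT 2 lay at the level of the CLH libraries and Ctrl CLT 1 between it and cKO CLT. The make-up of the sum shifted with its size. *Tgm1* accounted for 78.0 to 86.2% of it in CLH and for 91.0% in Ctrl CLT 2, whereas *Asprv1* and *Padi3* together made up 75.7% in Ctrl CLT 1 and, in cKO CLT, 76.4 and 77.0%. All 9 genes had at least 1 RPKM in Ctrl CLT 1 and in both cKO CLT libraries, but 1 gene (*Tgm1*) did in Ctrl CLT 2 and 1 to 3 genes did in each CLH library.

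**Figure D1:**
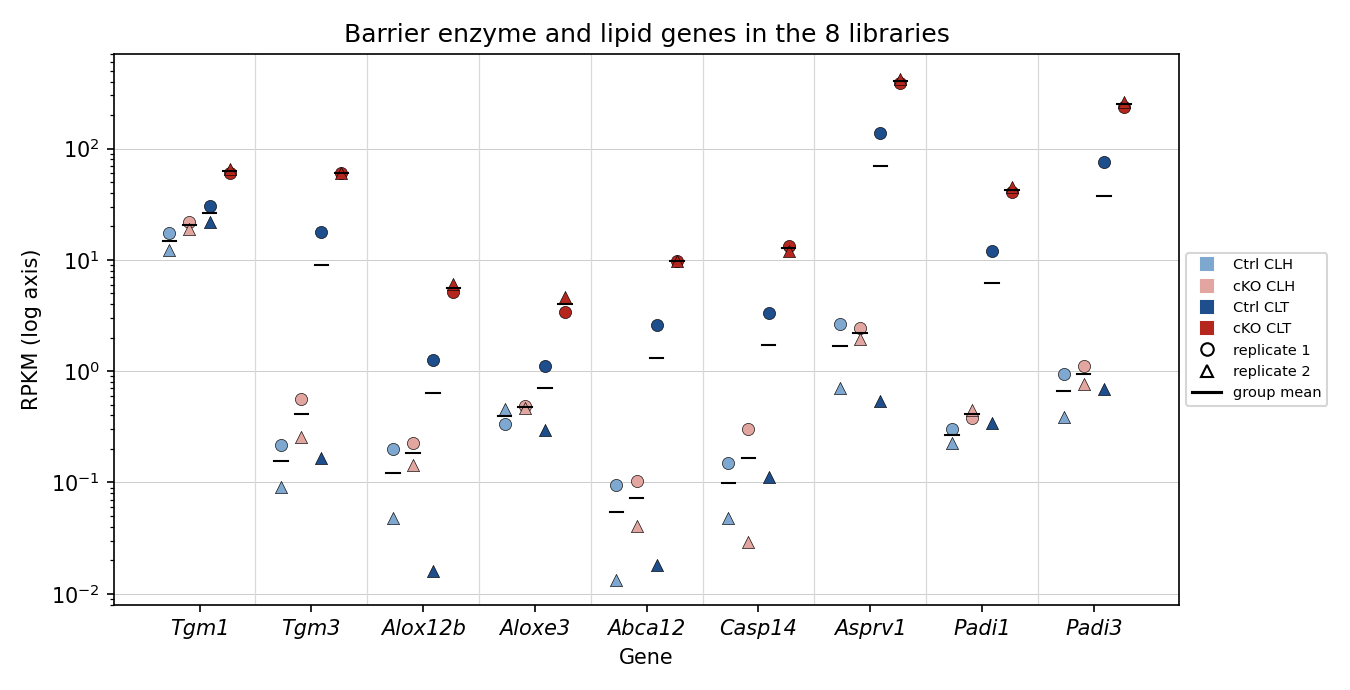
RPKM of the 9 barrier genes (log axis) in each of the 8 libraries; colours mark the 4 groups, circles replicate 1, triangles replicate 2, and short black lines the group means. In cKO CLT the paired points lie close together, for instance 59.7 and 60.7 for *Tgm3*, and furthest apart for *Aloxe3* (3.43 and 4.61), while in Ctrl CLT the circle stands well above the triangle for 8 of the 9 genes, for instance 17.9 and 0.165 for *Tgm3*; *Tgm1*, at 30.6 and 22.1, is the exception.

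In progeny tissue, cKO CLT was compared with Ctrl CLT. Both cKO CLT libraries lay above both Ctrl CLT libraries for 9 of the 9 genes, a separation also seen for 37.2% of all genes tested, and the median log2 fold change was 2.65 over the 9 genes and -0.01 over all genes. None passed an adjusted p of 0.05 in limma, where 1.75% of all genes did (11 higher, 237 lower). At an unadjusted p under 0.05, 6 of the 9 were higher, as were 19.8% of all genes. Of the 9, 7 entered the test only through the CLT libraries in which they are high, and just *Tgm1* and *Asprv1* have 2 or more CLH libraries with at least 1 RPKM, so these counts are a description. Fold changes are on the log2(RPKM + 1) scale, which understates those of genes with low levels.

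The calls depend on how replicates are paired and on which libraries enter the fit. With a replicate block 7 of 9 passed (888 genes higher, 856 lower). With the numbers crossed, a pairing chosen after seeing the data, 0 of 9 did (0 higher, 9 lower). The labels do not tie these numbers to a litter. With all 8 libraries in a common fit, 7 of 9 passed (43.7% of all genes), the exceptions being *Asprv1* (adjusted p = 0.081) and *Padi3* (adjusted p = 0.06). The common fit assumes the same spread in every group, although the Ctrl CLT pair differed far more than the others. Without Ctrl CLT 1, 9 of 9 passed (69.5% of all genes) and their median log2 fold change was 3.63, and without Ctrl CLT 2, 9 of 9 passed (52.1%) with a median of 1.58. In either case the lone Ctrl CLT library is assumed to vary as the cKO CLT libraries do.

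Of the transglutaminases, *Tgm1* encodes the membrane-anchored enzyme that starts envelope assembly at the cell periphery. It was at 17.4 and 12.3 RPKM in Ctrl CLH, 22.0 and 18.9 in cKO CLH, and in CLT at 30.6 and 22.1 in Ctrl and at 60.8 and 66.0 in cKO. It was the only gene of the 9 with more than 10 RPKM in every library, and Ctrl CLT 2 was level with the higher cKO CLH library while Ctrl CLT 1 lay above all CLH libraries. The mean was 63.4 ± 3.71 RPKM (SD, n = 2) in cKO CLT and 26.3 ± 6.02 in Ctrl CLT, a ratio of 2.41, with a log2 fold change of 1.25 ± 0.21 (SE, limma adjusted p = 0.064). That was the smallest fold change of the 9 and also the one with the lowest adjusted p.

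*Tgm3* encodes a soluble transglutaminase, active after proteolytic cleavage, that cross-links envelope precursors and, in hair, trichohyalin. Its level was 0.219 and 0.0905 RPKM in Ctrl CLH, 0.562 and 0.255 in cKO CLH, and in CLT 17.9 and 0.165 in Ctrl and 59.7 and 60.7 in cKO. Ctrl CLT 2, with 18 reads, fell among the CLH libraries, while Ctrl CLT 1, with 2151 reads, stood apart from them. The log2 fold change of 3.71 ± 1.42 (SE, limma adjusted p = 0.15) carries that distance in its error, and in cKO CLT the means of *Tgm1* and *Tgm3*, 63.4 ± 3.71 and 60.2 ± 0.703 RPKM (SD, n = 2), differed by less than the spread of the former on this per-length scale.

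The lipoxygenases were the least abundant of the 9 in cKO CLT. *Alox12b* encodes the 12R-lipoxygenase that carries out the initial oxidation of the ceramide-bound linoleate. It was at 0.198 and 0.0476 RPKM in Ctrl CLH, 0.227 and 0.144 in cKO CLH, and in CLT at 1.25 and 0.0160 in Ctrl and at 5.11 and 6.12 in cKO. The value in Ctrl CLT 2 rests on 1 read, which is 0.285% of the cKO CLT mean with an exact 95% Poisson interval of 0.00722 to 1.59%. Its log2 fold change in CLT was 2.12 ± 0.45 (SE, limma adjusted p = 0.076).

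*Aloxe3* encodes the hydroperoxide isomerase that takes the product of the former enzyme further. Its values were 0.332 and 0.454 RPKM in Ctrl CLH, 0.490 and 0.467 in cKO CLH, and in CLT 1.12 and 0.296 in Ctrl and 3.43 and 4.61 in cKO. Its range over the 8 libraries was the narrowest in fold terms after that of *Tgm1*, and its level in Ctrl CLT 2 was the lowest of the 8. The log2 fold change in CLT was 1.59 ± 0.33 (SE, limma adjusted p = 0.075). *Alox12b* and *Aloxe3* did not overlap in cKO CLT, at 5.61 ± 0.719 and 4.02 ± 0.834 RPKM (SD, n = 2), but in the CLH libraries *Aloxe3* was the higher of the pair throughout.

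*Abca12* encodes the transporter that fills lamellar granules with glucosylceramides, and its loss causes harlequin ichthyosis in humans. It was scarcely detected outside 3 libraries, at 0.0942 and 0.0134 RPKM in Ctrl CLH, 0.103 and 0.0406 in cKO CLH, and in CLT at 2.6 and 0.0181 in Ctrl and at 9.74 and 9.83 in cKO. Ctrl CLT 2 held 4 reads of this long transcript (8323 bases in the table) and Ctrl CLT 1 held 633. The log2 fold change of 2.49 ± 0.66 (SE, limma adjusted p = 0.093) again falls between the values given by either Ctrl CLT library alone, 1.58 with Ctrl CLT 1 and 3.40 with Ctrl CLT 2.

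Of the proteases, *Casp14* encodes a caspase of cornifying keratinocytes that takes part in the breakdown of filaggrin rather than in apoptosis. Its level was 0.150 and 0.0479 RPKM in Ctrl CLH, 0.305 and 0.0290 in cKO CLH, and in CLT 3.30 and 0.113 in Ctrl and 13.4 and 12.1 in cKO. The CLH values of replicate 2 rest on 3 and 2 reads, so the CLH groups are not resolved for this gene. In CLT the log2 fold change was 2.65 ± 0.71 (SE, limma adjusted p = 0.094).

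*Asprv1* encodes SASPase, a retroviral-like aspartic protease that cleaves the linker of profilaggrin. It was at 2.66 and 0.705 RPKM in Ctrl CLH, 2.42 and 1.94 in cKO CLH, and in CLT at 139 and 0.540 in Ctrl and at 387 and 421 in cKO. It was the most abundant of the 9 in cKO CLT, at 404 ± 24.1 RPKM (SD, n = 2), rank 143 among the genes tested, and its lowest value of all was in Ctrl CLT 2. The distance between the Ctrl CLT libraries was the widest of the 9, and the log2 fold change of 4.79 had an SE of 2.29 (limma adjusted p = 0.21), the largest on this scale, with the highest adjusted p. The place is not steady: without Ctrl CLT 2 its log2 fold change was 1.53 and *Padi1* had the largest (1.74), and by the ratio of mean RPKM it was at 5.79 and *Alox12b* was the largest (8.85).

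The peptidylarginine deiminases turn arginine into citrulline, which loosens filaggrin from keratin and prepares trichohyalin for cross-linking. *Padi1* was at 0.302 and 0.228 RPKM in Ctrl CLH, 0.379 and 0.450 in cKO CLH, and in CLT at 12.1 and 0.340 in Ctrl and at 40.3 and 45.2 in cKO. *Padi3* was at 0.947 and 0.388 in Ctrl CLH, 1.11 and 0.772 in cKO CLH, and in CLT at 75.0 and 0.686 in Ctrl and at 237 and 262 in cKO. For both, Ctrl CLT 2 lay within the range of the CLH libraries and Ctrl CLT 1 far above it, and *Padi3* exceeded *Padi1* in each of the 8 libraries. The log2 fold changes in CLT were 3.38 ± 1.17 for *Padi1* and 4.47 ± 1.94 for *Padi3* (SE, limma adjusted p = 0.13 and 0.18).

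In order of mean RPKM in cKO CLT the genes ran *Asprv1* (404), *Padi3* (250), *Tgm1* (63.4), *Tgm3* (60.2), *Padi1* (42.8), *Casp14* (12.8), *Abca12* (9.78), *Alox12b* (5.61) and *Aloxe3* (4.02). The neighbours *Tgm1* and *Tgm3* did not differ beyond their spread, and in every other neighbouring pair the libraries of the higher gene lay clear of those of the lower. In Ctrl CLH and cKO CLH the order differed, with *Tgm1* at the top (14.9 and 20.4), *Asprv1* next (1.68 and 2.18) and *Abca12* last (0.0538 and 0.0719). The lipid genes *Abca12*, *Alox12b* and *Aloxe3* thus occupied the bottom places in cKO CLT, and *Asprv1* and *Padi3* the top.

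How the genes differ between stem cell and progeny tissue was compared within each genotype. In cKO, 9 of 9 were higher in CLT than in CLH at a limma adjusted p of at most 4.8e-06, in a comparison in which 74.0% of all genes passed (4084 higher, 6384 lower), and the median log2 fold change was 3.57 against -0.18 over all genes. The ratio of mean RPKM was 265 for *Padi3*, 185 for *Asprv1*, 147 for *Tgm3*, 136 for *Abca12* and 103 for *Padi1*, but 8.40 for *Aloxe3* and 3.10 for *Tgm1*. Median-of-ratios scaling raised the all-gene median by 0.20 and changed the share of higher calls over all genes from 39% to 51.9%, and 9 of 9 genes still passed. As 7 of the 9 were tested only because they are high in CLT, the count of 9 is a description here as well.

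In Ctrl, none of the 9 passed between CLT and CLH in limma, where 0.00707% of all genes did (1 gene), and the median log2 fold change was 0.99. At an unadjusted p under 0.05, 1 of the 9 (*Tgm1*, log2 fold change 0.78 ± 0.26) and 1860 genes in all were below the threshold. Without Ctrl CLT 2, 8 of 9 passed (53.3% of all genes) with a median of 1.97, and without Ctrl CLT 1 none did (3.31% of all genes) and the median was 0.01. Both fits assume that the lone Ctrl CLT library varies as the Ctrl CLH libraries do. Most of the 9 were also tested only because they are high in CLT, so these counts are a description. By the fitted sizes, the difference between the regions in Ctrl rests on Ctrl CLT 1 for the genes other than *Tgm1*. Without that library their log2 fold changes were -0.70 (*Asprv1*) to 0.08 (*Padi1*). *Tgm1* was higher in both Ctrl CLT libraries than in both Ctrl CLH libraries and kept a log2 fold change of 0.56 without Ctrl CLT 1. These comparisons share libraries with the cKO against Ctrl comparisons and are not independent of them.

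Whether the difference between cKO and Ctrl depends on the region was asked with an interaction term fitted to all 8 libraries. That fit assumes the same spread in every group. The median log2 difference was 0.40 in the Ctrl CLT pair but 0.09 to 0.11 in the others, so this was not met. The interaction term passed for 2 of the 9 genes, the lipoxygenases, where 17.6% of all genes passed. For *Alox12b* it was 2.04 ± 0.51 (SE, limma adjusted p = 0.043), from log2 fold changes of 2.12 in CLT and 0.08 in CLH, and for *Aloxe3* it was 1.5 ± 0.36 (limma adjusted p = 0.04), from 1.59 and 0.09. For the other 7 the adjusted p was 0.067 to 0.26, although all but *Tgm1* (0.81) had larger differences, from 2.47 for *Abca12* to 4.44 for *Asprv1*, so nothing here sets the lipoxygenases apart in size. Both lipoxygenases are under 1 RPKM in every CLH library and were tested only because they are high in CLT, so their calls are a description too.

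These interaction calls were not steady. With a pseudocount of 0.5 in place of 1 neither lipoxygenase passed (limma adjusted p = 0.07 and 0.055), nor did either with a pseudocount of 0.1 or with voom on whole reads. A replicate block also left neither past the threshold (limma adjusted p = 0.058 and 0.068). Leaving out any of the 4 CLH or 2 cKO CLT libraries gave 0 of 9. In those fits the background was 1.92% without Ctrl CLH 1, 1.4% without Ctrl CLH 2, 1.75% without cKO CLH 1, 1.89% without cKO CLH 2, 1.57% without cKO CLT 1 and 1.99% without cKO CLT 2. Leaving out Ctrl CLT 1 gave 9 of 9 (63.1%), and leaving out Ctrl CLT 2 gave 7 of 9 (46.6%).

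In CLH, the comparison of cKO with Ctrl asks whether the genes already differ in stem cell tissue. Both cKO CLH libraries were above both Ctrl CLH libraries for 4 of the 9 genes (*Tgm1*, *Tgm3*, *Aloxe3* and *Padi1*), against 19.9% of all genes, and the ranges overlapped for the other 5. None of the 9, and 0.0% of all genes, passed in limma. At an unadjusted p under 0.05, 1027 genes were below the threshold, 684 of them higher (4.83% of genes tested), among them 1 of the 9, *Padi1*, with a log2 fold change of 0.16 ± 0.06 (limma adjusted p = 0.69). A voom fit on whole reads called 0 genes as well.

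The largest fitted change in CLH was that of *Tgm1*, at 0.45 ± 0.18 on the log2 scale (SE, limma adjusted p = 0.69), from means of 14.9 ± 3.60 RPKM in Ctrl and 20.4 ± 2.24 in cKO. That place depends both on the scale, since with a pseudocount of 0.1 *Tgm3* had the largest (0.98, against 0.47 for *Tgm1*), and on Ctrl CLH 1, without which *Asprv1* had the largest (0.90, against 0.68 for *Tgm1*). Without Ctrl CLH 2 *Tgm1* was still the largest, at 0.22, and *Asprv1* was at -0.20. The median over the 9 was 0.16, and it fell to 0.01 without Ctrl CLH 2. That library was the lowest of the 4 CLH libraries for 7 of the 9 genes, a place it held for 28.5% of all genes tested. It was also the lowest for oral epithelial keratins. Over 8 genes of oral and tongue epithelium the summed level was 41.8 and 2.14 RPKM in Ctrl CLH against 76.2 and 45.9 in cKO CLH, with *Krt13* at 21.8 and 0.0566 against 42.5 and 24.4 and *Krt4* at 6.07 and 0.262 against 12.3 and 7.11. The part of oral epithelium in the CLH values of the 9 genes was not tested.

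In CLT, the level of a gene in Ctrl CLT 1 can be set against its mean in cKO CLT. For the 9 barrier genes it was 22.3% (*Alox12b*) to 48.2% (*Tgm1*) with a median of 28.3%, and 22.3 to 34.4% when *Tgm1* is left aside. In Ctrl CLT 2 the same share was 34.8% for *Tgm1*, 7.37% for *Aloxe3* and under 1% for each of the other 7. The 8 genes besides *Tgm1* thus differ far less in their share in Ctrl CLT 1 than in their level in cKO CLT, which spans 404 to 4.02 RPKM.

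Marker lists of hair and epidermis had shares in Ctrl CLT 1 near this range, set side by side here without a test. Of 8 inner root sheath and medulla markers 7 are in the table (*Krt72* was not analysed here), and they summed to 3476 and 14.5 RPKM in Ctrl CLT against 10274 and 11242 in cKO CLT, led by *Krt71*, so that Ctrl CLT 1 was at 32.3%. The 11 hair cortex and cuticle keratins, led by *Krt33a*, summed to 1106 and 1.4 in Ctrl CLT against 3081 and 3363 in cKO CLT (34.3%), and the companion layer keratin *Krt75* was at 127 and 2.84 and at 390 and 429 (31.1%). The 7 interfollicular epidermis markers in the table, led by *Krt10* (*Flg* was not analysed here), summed to 330 and 3.84 in Ctrl CLT against 1015 and 1048 in cKO CLT (32.0%). None of these epidermal or hair markers was at 0 in both cKO CLT libraries.

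Muscle and pigment cell genes had shares near these. The 5 skeletal muscle genes, led by *Acta1*, summed to 638 and 48.0 RPKM in Ctrl CLT against 1745 and 1921 in cKO CLT (34.8%), and 6 melanocyte genes, led by *Dct*, to 134 and 10.3 and to 414 and 414 (32.4%). The 8 sebaceous gland genes, led by *Scd1*, summed to 125 and 55.4 and to 360 and 342 (35.5%), but in Ctrl CLT 2 they were at 15.8% of cKO CLT, against 2.62% for the muscle and 2.5% for the melanocyte genes. By contrast 3 endothelial genes, led by *Pecam1*, summed to 37.4 and 52.1 in Ctrl CLT against 44.5 and 44.6 in cKO CLT, and 6 mesenchymal genes, led by *Col1a2*, to 1489 and 1858 and to 1655 and 1824, although their median log2 fold change was -0.70 and 3 of the 6 were lower in both cKO CLT libraries than in both Ctrl CLT libraries. Odontoblast and bone genes went the other way, at 2167 and 2533 against 378 and 472 with *Ibsp* at 0 in both cKO CLT libraries. The 8 dental epithelial markers, led by *Krt5*, summed to 1764 and 963 in Ctrl CLT against 2639 and 3035 in cKO CLT, although 3 of the 8 were lower in both cKO CLT libraries than in both Ctrl CLT libraries. The 4 leukocyte genes, led by *Lyz2*, summed to 182 and 156 against 128 and 115, and the 2 erythroid genes in the table, led by *Alas2* (*Hbb-bs* was not analysed here), to 6.23 and 5.90 against 4.10 and 5.12. Whether Ctrl CLT 1 holds tissue of the kind in the cKO CLT libraries, and what part the tissue make-up of these libraries has in the levels and CLT fold changes of the 9 genes, was not tested.

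**Figure D2:**
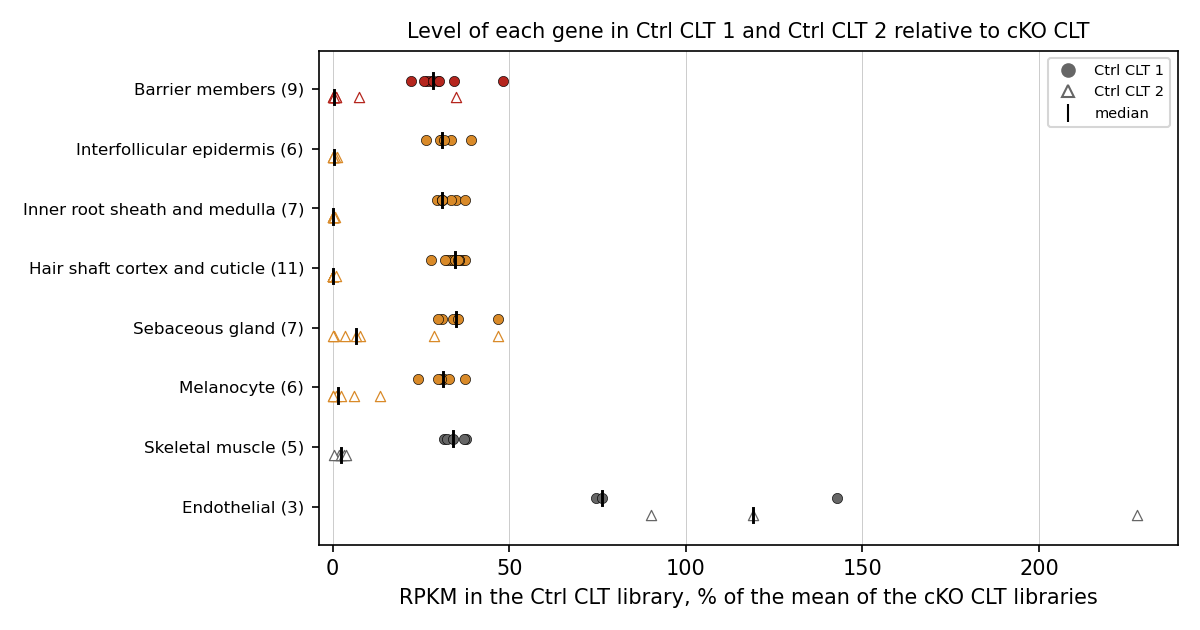
RPKM of each gene in Ctrl CLT 1 (filled circles) and Ctrl CLT 2 (open triangles) as a percentage of its mean in the 2 cKO CLT libraries, for genes with a cKO CLT mean of at least 1 RPKM; rows are the 9 barrier genes and 7 marker lists chosen after their values were seen, with the number of genes in brackets and black bars for medians. The medians in Ctrl CLT 1 lie between 28.3% (barrier genes) and 35.0% (sebaceous gland) for all rows but endothelial genes, which are at 76.4%.

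The other members of the same enzyme families behaved unevenly. Of 19 genes 15 were tested in CLT, none passed in limma, and the median log2 fold change was 0.82. For 15 of the 19 both cKO CLT libraries lay above both Ctrl CLT libraries, and among all genes tested the share was 37.2%. Here and in the lists below, such counts include any genes too low to be tested, which the share leaves out. *Tgm6* was at 20.2 and 0.0114 RPKM in Ctrl CLT against 65.9 and 72.5 in cKO CLT (log2 fold change 3.92 ± 1.55, limma adjusted p = 0.16), *Padi4* at 15.8 and 0.242 and at 50.1 and 55.8 (3.56 ± 1.33, adjusted p = 0.15), and *Alox12e* at 14.1 and 0 and at 45.2 and 48.5. *Alox8* was at 6.93 and 0.518 and at 22.7 and 24.5, *Alox12* at 3.76 and 0.842 and at 10.7 and 11.2, and *Tgm5* at 1.62 and 0 and at 5.90 and 6.34. Like most of the barrier genes, these 6 were highest in cKO CLT and intermediate in Ctrl CLT 1.

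Other family members ran differently. *Tgm2*, the tissue transglutaminase, was at 10.2 and 14.0 RPKM in Ctrl CLT against 12.3 and 12.7 in cKO CLT, and *Abca1*, a cholesterol exporter, at 10.8 and 13.6 and at 9.43 and 8.95, the lowest log2 fold change of the list (-0.36 ± 0.18, limma adjusted p = 0.23). *F13a1* was at 5.34 and 8.50 in Ctrl CLT and at 11.3 and 10.9 in cKO CLT, with Ctrl CLT 1 the lower of its pair. Of the rest, *Tgm4*, *Alox5*, *Padi2*, *Abca2*, *Abca3* and *Abca7* had fitted changes of 0.43 to 0.88, and *Tgm7*, *Alox15*, *Padi6* and *Abca13* were too low to be tested.

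The proteins on which the enzymes act, and their scaffold, were followed through 32 genes, of which 30 are in the table (*Flg* and *Csta1* were not analysed here). Of 26 tested none passed in CLT, the median log2 fold change was 3.13, and for 25 of 30 the cKO CLT libraries lay above the Ctrl CLT libraries (37.2% of all genes tested). *Tchh*, the trichohyalin substrate of *Tgm3* and *Padi3*, was at 509 and 1.48 RPKM in Ctrl CLT against 1636 and 1801 in cKO CLT. *S100a3*, a calcium-binding protein of the hair cuticle and a substrate of *Padi3*, was at 747 and 1.11 and at 1954 and 2102. *Sprr4* had the largest change of the list, from 343 and 0 to 1136 and 1112 (log2 fold change 5.92 ± 2.96, limma adjusted p = 0.22), whereas *S100a11* was at 501 and 429 and at 469 and 463, and *Sprr3* at 0.308 and 0 and at 0 and 0.

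Of 30 acylceramide and lamellar lipid genes, which supply the substrates of *Abca12* and the lipoxygenases, 29 were tested (*Cers3* was not analysed here). None passed in CLT, the median log2 fold change was 1.20, and for 23 of the 29 both cKO CLT libraries lay above both Ctrl CLT libraries (37.2% of all genes tested). *Acer1*, an alkaline ceramidase, was at 11.8 and 0 RPKM in Ctrl CLT against 35.1 and 33.9 in cKO CLT, and the fatty acid elongase *Elovl1* at 44.8 and 29.1 and at 69.2 and 72.1. The desaturase *Degs1* was at 38.3 and 57.1 and at 32.1 and 31.4, and the acid ceramidase *Asah1* at 32.9 and 67.5 and at 40.5 and 33.3. *Degs1* and *Asah1*, unlike *Abca12*, were not higher in cKO CLT than in both Ctrl CLT libraries.

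Of 25 barrier proteases and inhibitors, 24 were tested, none passed, the median log2 fold change in CLT was 1.94, and for 20 of the 25 both cKO CLT libraries lay above both Ctrl CLT libraries (37.2% of all genes tested). *Klk7*, a kallikrein that cleaves corneodesmosomes, had the largest change, at 114 and 0.0862 RPKM in Ctrl CLT against 359 and 354 in cKO CLT (5.0 ± 2.37, limma adjusted p = 0.21). The lysosomal proteases *Ctsd* and *Ctsl* were at 459 and 255 against 683 and 708 and at 235 and 189 against 228 and 218. *Lgmn*, with the lowest log2 fold change of the list, was at 50.5 and 81.2 in Ctrl CLT against 32.8 and 31.7 in cKO CLT (-0.97 ± 0.27, limma adjusted p = 0.099).

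Of 27 transcription factors of barrier formation, 25 were tested in CLT and 1 passed, *Tfap2a*, at 9.18 and 7.26 RPKM in Ctrl CLT and at 28.4 and 26.0 in cKO CLT (log2 fold change 1.62 ± 0.18, limma adjusted p = 0.049), where 1.75% of all genes passed. The call was lost, among other settings, without a filter (adjusted p = 0.092), with voom (0.067), and without either cKO CLT library (0.44 and 0.46). The median of the list was 1.21, and 22 of the 27 had both cKO CLT libraries above both Ctrl CLT libraries (37.2% of all genes tested). *Grhl1*, with the largest change, was at 38.5 and 0.937 and at 138 and 135 (3.97 ± 1.53, limma adjusted p = 0.15), in proportions like those of *Casp14* and *Padi1*. *Dlx3* was at 125 and 120 and at 134 and 140, and *Maf*, with the lowest log2 fold change, at 46.9 and 60.9 and at 19.2 and 18.0 (-1.47 ± 0.19, limma adjusted p = 0.056).

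Among all genes tested, the 5 whose centred log2(RPKM + 1) profile over the 8 libraries lay nearest to the mean profile of the 9 were *Il1f5*, *Clic3*, *Hsd17b14*, *Krtap4-9* and *Serpinb2*, with root mean square differences of 0.07 to 0.12. *Il1f5*, the nearest, was at 0.194 and 0.0191 RPKM in Ctrl CLH, 0.456 and 0.191 in cKO CLH, and in CLT at 6.13 and 0 in Ctrl and at 20.7 and 22.0 in cKO. Within the 9, *Abca12* and *Casp14* were nearest to each other (0.14), as were *Tgm1* and *Aloxe3* (0.27), *Tgm3* and *Padi1* (0.31), and *Asprv1* and *Padi3* (0.33). *Alox12b* was nearest to *Aloxe3* (0.33), its neighbour in the pathway and on the chromosome.

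Some of the genes lie side by side in the mouse genome (mm10). *Aloxe3* (chr11:69126377-69149115) and *Alox12b* (chr11:69157072-69169791) are 7.96 kb apart, followed by *Alox8* after 14.1 kb. *Padi3* (chr4:140785369-140810648) and *Padi1* (chr4:140812981-140845778) are 2.33 kb apart, with *Padi4* on the other side of *Padi3* after 11.2 kb, and *Tgm6* lies 72.9 kb from *Tgm3* (chr2:130012374-130050399). The remaining genes are on other chromosomes: *Tgm1* (chr14:55700009-55713492), *Abca12* (chr1:71243090-71414910), *Casp14* (chr10:78711995-78718293) and *Asprv1* (chr6:86628174-86629704). In the GENCODE annotation exons of 7 of the 9 overlap no other gene's exons, while *Tgm1* shares 182 bases with the antisense gene *Gm49067* and *Padi1* shares 1200 bases with *Gm13032* on the opposite strand, and since a strand setting is not given in the sources used here, reads of these partners cannot be told apart from theirs.

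Promoters of the genes were searched on both strands for motifs of factors known in epidermal differentiation. RefSeq windows (GRCm38.p6) from 250 bases before to 50 bases after the gene start were given for 8 of the 9 genes, with 2 windows for *Tgm1*; none was used for *Aloxe3*. The AP-1 motif TGACTCA, present in 5.20% of 32851 windows of all genes, and the GRHL motif AACCGGTT, present in 0.146%, occurred in 0 of the 9 windows. The CACCC box CCACACCC, which KLF factors bind and which 3.56% of all windows hold, occurred in 2, those of *Casp14* and *Alox12b*, shown here with the motif in capitals because they are the only matches.
Casp14, minus strand, chr10:78718244-78718543, where the motif reads as its reverse complement: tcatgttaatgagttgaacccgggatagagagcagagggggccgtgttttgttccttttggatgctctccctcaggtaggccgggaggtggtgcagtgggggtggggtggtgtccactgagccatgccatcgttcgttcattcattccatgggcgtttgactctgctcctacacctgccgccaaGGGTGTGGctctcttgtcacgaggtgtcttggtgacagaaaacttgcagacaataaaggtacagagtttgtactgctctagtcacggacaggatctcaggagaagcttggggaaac
Alox12b, plus strand, chr11:69156822-69157121: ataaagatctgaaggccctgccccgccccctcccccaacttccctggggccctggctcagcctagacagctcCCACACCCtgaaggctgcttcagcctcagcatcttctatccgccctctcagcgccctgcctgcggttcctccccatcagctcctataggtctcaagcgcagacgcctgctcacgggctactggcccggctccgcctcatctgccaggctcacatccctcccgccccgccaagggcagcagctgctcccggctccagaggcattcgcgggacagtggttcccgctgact
A match of 8 letters is a description of the sequence and no evidence of binding, and the lack of a match says only that these letters are not in the window.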

How the data were processed

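RNA-seq libraries of CLH and CLT tissue from cKO and Ctrl mice (2 per group, groups from the labels) were used. Per the submitters' processing notes, FastQC 0.72, Trim Galore 0.4.3.1, STAR 2.6.0b-1, featureCounts 1.6.3 and DESeq2 2.11.40.2 were run on mm10. The authors deposited RPKM for 23358 genes with a gene length for each; the annotation, the strand setting and the total behind the RPKM are not given in the sources used here. The deposited RPKM times gene length were whole multiples of 1 step per library (100.0% of values up to 10000 reads, within 0.01 reads), which gave the reads behind each value. Of the library total implied by this step, 82.2 to 85.6% lay on genes, and intervals cover counting error only. No column of sample values was left unused.

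The 9 genes, the gene and marker lists, the motifs and the tests were chosen with earlier results of these data known. From the RPKM, log2(RPKM + 1) was tested with limma 3.58.1 (variance trend) in R 4.3.3 on the 14148 genes with at least 1 RPKM in at least 2 of 8 libraries, with Benjamini-Hochberg adjustment over all of them, a threshold of 0.05 and two-sided p-values. Each comparison used its own 4 libraries and the interaction all 8. With 2 libraries a side the smallest exact permutation p is 0.333, so no such test was used. As tissues were pooled, p-values measure the spread between libraries. The fits were tested on simulated data with the same spread in every library, so that test does not cover a pair as unlike as the Ctrl CLT libraries.

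Named genes were *Med1*, the 9 genes, their family members, and in every other list the 3 with the highest mean, the largest and smallest CLT change and those past the threshold. A few genes that met this rule are not described. Likeness of profiles was the root mean square difference of centred log2 values. Names on more than 1 row (26 names, 69 rows) were not used. Settings tried as alternatives were a pseudocount of 0.1 or 0.5, quantile and median-of-ratios scaling, no filter and a filter on the mean, a common fit, no trend, robust eBayes, a replicate block, voom on whole reads, an added limit of 1 on the log2 fold change, ratios of group means, and each library left out in turn. A crossed replicate block was chosen after seeing the data. Python 3.11.15 with pandas 2.3.3 and matplotlib 3.10.9 served for tables and figures.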

Additional observations from a re-analysis of the deposited data

Results flagged for a closer look

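The difference between the libraries labelled cKO and Ctrl was not the same in CLT and CLH by the interaction test in limma, at an adjusted p under 0.05, for 2 of the 9 barrier genes and for some of the genes named from the lists. For *Alox12b* the log2 fold change was larger in CLT than in CLH by 2.04 ± 0.51 (SE, adjusted p = 0.043), and for *Aloxe3* by 1.5 ± 0.36 (adjusted p = 0.04). Over all genes, 17.6% passed. The test assumes the same spread in every group, which the Ctrl CLT pair did not share. Both lipoxygenases are under 1 RPKM in every CLH library and were tested only because they are high in CLT, so these calls are a description. Neither lipoxygenase passed without any 1 of the 4 CLH or 2 cKO CLT libraries. Both did without either Ctrl CLT library, where the lone library left is assumed to vary as the other groups do. With a replicate block neither passed (limma adjusted p = 0.058 for *Alox12b* and 0.068 for *Aloxe3*).

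Of all genes tested, 17.6% passed the interaction test (1139 higher, 1355 lower), and the counts in the lists beside this share are a description. In the lists, interaction calls were 5 higher and 3 lower of 25 transcription factors tested, and 4 higher of 29 lipid genes. Of 24 proteases and inhibitors 2 were called higher and 1 lower. Among 26 substrate and scaffold genes 1 was called higher, as was 1 of 15 other family members. Of the transcription factors, *Tfap2a* differed by 1.67 ± 0.22 (limma adjusted p = 0.0093), with log2 fold changes of 1.62 in CLT and -0.05 in CLH. *Maf* differed in the opposite direction, by -1.44 ± 0.23 (limma adjusted p = 0.016), with -1.47 in CLT and -0.03 in CLH. The protease gene *Lgmn* differed by -1.14 ± 0.29 (limma adjusted p = 0.046), with -0.97 and 0.17. Without any 1 of the 4 CLH or 2 cKO CLT libraries *Maf* (adjusted p of 0.067 to 0.083) and *Lgmn* (0.14 to 0.16) did not pass, and of these 6 fits *Tfap2a* passed only in that without Ctrl CLH 1 (adjusted p = 0.043). *Lgmn* also did not pass without a filter (limma adjusted p = 0.059) or without a variance trend (0.052). With voom (0.057) or with a replicate block (0.069) it did not pass either.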

How the results depend on the processing

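In CLT all 9 genes were higher in cKO under every alternative, with fitted values of 1.03 (*Tgm1* without Ctrl CLT 2) to 8.04 (*Asprv1* without Ctrl CLT 1). None of these values reversed, but both cKO CLT libraries lay above both Ctrl CLT libraries for all 9 genes. Leaving out a library or changing the pseudocount, filter or variance model could therefore not reverse a direction. In CLH *Asprv1* turned from 0.35 to -0.20 without Ctrl CLH 2, as *Alox12b*, *Abca12* and *Padi3* turned negative. Without cKO CLH 1, *Casp14* turned from 0.078 to -0.093 and *Abca12* from 0.025 to -0.017. Between regions in Ctrl, *Asprv1* turned from 2.56 to -0.70 without Ctrl CLT 1, as *Alox12b*, *Aloxe3* and *Abca12* turned negative. Of 117 values under settings other than a library left out, 14 moved past the threshold and a further 12 moved by more than the spread, among them *Alox12b* (2.12, with voom 4.99) and *Abca12* (2.49, with voom 5.35). The cause of each change below was not tested.

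Members past the threshold in CLT were 0 in the fit as reported, 7 in the common fit of all 8 libraries, and 0 to 9 with a library left out. Genes called higher in CLT numbered 11, and 3352 in the common fit, 0 without a filter, 0 with voom and 0 to 4445 with a library left out. Genes called lower numbered 237, and 2831, 3, 0 and 11 to 5393 under the same settings. The median log2 fold change of the 9 genes in CLT was 2.65, 4.13 with a pseudocount of 0.1, 4.99 with voom, and 1.58 to 3.63 with a library left out.

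In CLH robust eBayes called 2 genes higher and 2 lower against 0. The median was 0.16, 0.47 with a pseudocount of 0.1, 0.54 with voom, and 0.0116 to 0.25 with a library left out.

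The interaction passed for 2 of the 9 genes, for 0 with a pseudocount of 0.1 or 0.5 or with voom, for 1 without a filter, and for 0 to 9 with a library left out, where genes called higher were 2 to 4028 against 1139 and lower 196 to 4904 against 1355. The median was 2.57, 3.71 with a pseudocount of 0.1, 4.09 with voom, and 1.47 to 3.55 with a library left out.

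Between regions in Ctrl, 1 gene was called higher; this became 2 with a pseudocount of 0.1 or 0.5, quantile normalization or a filter on the mean, 0 without a filter or with voom, 346 (and 491 lower) in the common fit, and 0 to 2600 (0 to 4937 lower) with a library left out. Members numbered 0 to 8 there, and the median of 0.99 became 2.15 with a pseudocount of 0.1, 2.64 with voom and 0.0145 to 1.97 with a library left out. Median-of-ratios scaling raised the all-gene median by 0.15. In cKO the median of 3.57 became 5.87 and 4.34 with pseudocounts of 0.1 and 0.5, 6.87 with voom, 3.69 with median-of-ratios scaling (5270 genes higher and 4884 lower, against 4084 and 6384), and 3.40 to 3.74 with a library left out.

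The mice came from 2 litters, and the groups share replicate numbers that the labels do not tie to a litter. The deviations of same-numbered libraries had a correlation over genes of 0.07 between cKO and Ctrl in CLH and -0.19 in CLT, and between the regions of 0.195 in Ctrl and 0.307 in cKO. With the replicate block, 7 of the 9 genes passed in CLT (888 genes higher, 856 lower), 0 in the interaction (513 higher, 935 lower), and 5 genes were higher between regions in Ctrl. With the numbers crossed in CLT, a pairing chosen after seeing the data, 0 of the 9 genes, 0 higher and 9 lower genes were called.

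Depth limits the low values: outside cKO CLT and Ctrl CLT 1 the lipoxygenases, *Abca12* and *Casp14* rest on 1 to 42 reads per library.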
